A study of Mus musculus with 4 samples.

Results

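Vitamin A is kept in the healthy liver by hepatic stellate cells, which esterify it and hold it in lipid droplets, and which lose these stores when they turn into contractile, matrix-producing myofibroblasts. Expression of 9 retinoid storage and signalling genes was followed in cultured mouse stellate cells: Lrat, Rbp4, Stra6, Rarb, Rarg, Crabp1, Crabp2, Aldh1a1 and Aldh1a2. The genes were chosen by name for their place in retinoid handling, with earlier results of these data known. All 9 are on the array, among 26793 genes. They are read by 14 probes. Of the 9 genes, 7 gave a signal well above background on all 4 arrays, and Lrat and Aldh1a2 did so on none. Over the whole array, 17355 genes were well above background on all 4 arrays and 18930 on at least 1.

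The cells were IMS/N, 1 stellate cell line derived from normal 129/Sv mouse liver and immortalized by infection with SV40, so every group shares this background. The control array held RNA of IMS/N cells with neither addition. The PA group received palmitic acid, a saturated fatty acid, the ADSC medium group received medium taken from a culture of adipose tissue-derived stem cells (ADSCs), and the last group, written here as both, received PA and that medium. These ADSCs came from inguinal subcutaneous fat of male C57BL/6J mice of 8 to 10 weeks. How much PA was added and for how long, and what replaced PA or ADSC medium in the other cultures, the sources used here do not say. The question in the series title is whether ADSCs have a restorative effect on PA-activated stellate cells. Each condition was measured on 1 one-colour Agilent array, so every difference compares 2 arrays, carries no p-value and has no replicate check.

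Retinol travels in blood bound to Rbp4 and enters cells through Stra6. Inside the cell, Lrat makes retinyl esters for storage, retinol dehydrogenases and reductases such as Dhrs3 set the balance of retinol and retinal, and the Aldh1a enzymes make retinoic acid from retinal. Crabp1 and Crabp2 carry retinoic acid in the cytosol, the Cyp26 enzymes break it down, and the receptors Rara, Rarb and Rarg, paired with the Rxr receptors, bind DNA at repeated half-sites and switch genes on when the ligand is present. Rarb, Crabp2, Dhrs3, Cyp26a1, Stra6 and Lrat are textbook targets of retinoic acid as well as parts of the pathway.

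The promoters of Rarb and Cyp26a1 are shown because these genes gave the widest differences in the retinoid pathway described here and because each carries such a repeat next to its start. Sequences are RefSeq's for the build GRCm38.p6, the 250 bases before each gene's start, read 5′ to 3′ on the gene's strand. Capitals mark the half-sites of a direct repeat spaced by 5 bases.
Rarb, chr14:16575477-16575726, minus strand: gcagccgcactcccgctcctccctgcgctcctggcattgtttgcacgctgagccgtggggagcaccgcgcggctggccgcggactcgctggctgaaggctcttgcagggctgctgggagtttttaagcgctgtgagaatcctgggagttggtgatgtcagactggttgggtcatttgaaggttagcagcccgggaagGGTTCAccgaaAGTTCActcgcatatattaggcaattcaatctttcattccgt
Cyp26a1, chr19:37697558-37697807, plus strand: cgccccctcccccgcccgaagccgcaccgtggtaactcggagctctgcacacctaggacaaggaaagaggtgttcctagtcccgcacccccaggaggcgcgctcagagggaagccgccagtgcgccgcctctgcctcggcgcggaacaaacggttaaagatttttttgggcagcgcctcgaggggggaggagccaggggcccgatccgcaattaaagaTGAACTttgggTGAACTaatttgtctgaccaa
The search took direct repeats of the half-site AGGTCA or AGTTCA or GGGTCA or GGTTCA, each paired with itself or with another of them, spaced by 1, 2 or 5 bases, on both strands, in the window from 250 bases before to 50 after a start. In Rarb the repeat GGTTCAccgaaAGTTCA lies on the gene's strand, 53 to 37 bases before the start, at chr14:16575513-16575529. In Cyp26a1 the repeat lies on the opposite strand, read here as TGAACTttgggTGAACT, 32 to 16 bases before the start, at chr19:37697776-37697792. A repeat with spacing 5 was found in 32 of 32851 promoters of the table (0.0974%), one with spacing 1 in 73 (0.222%) and one with spacing 2 in 88 (0.268%). Promoters of 8 of the 9 genes were in the table, 14 in number, and Rarb was the 1 gene among them with a match; no match says only that these letters are not in that window.

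Levels are log2 intensities after quantile normalization of the 4 arrays, and can be compared between arrays for 1 probe but not between probes. The plot of levels shows a flat course for Stra6, Rarg and Aldh1a1, and a wide one for Rarb. Crabp2, like Rarb, was low on both PA arrays and highest with ADSC medium alone. A gene was counted as higher or lower when 2 arrays differed by at least 1.5-fold. Spot noise was taken from 245 probes printed on 10 spots of each array. The SD of the difference of 2 such spots on 1 array was 0.231 at log2 levels of 3 to 5, 0.129 at 5 to 7 and 0.0799 at 7 to 9. This noise holds no variation between cultures.

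**Figure D1:**
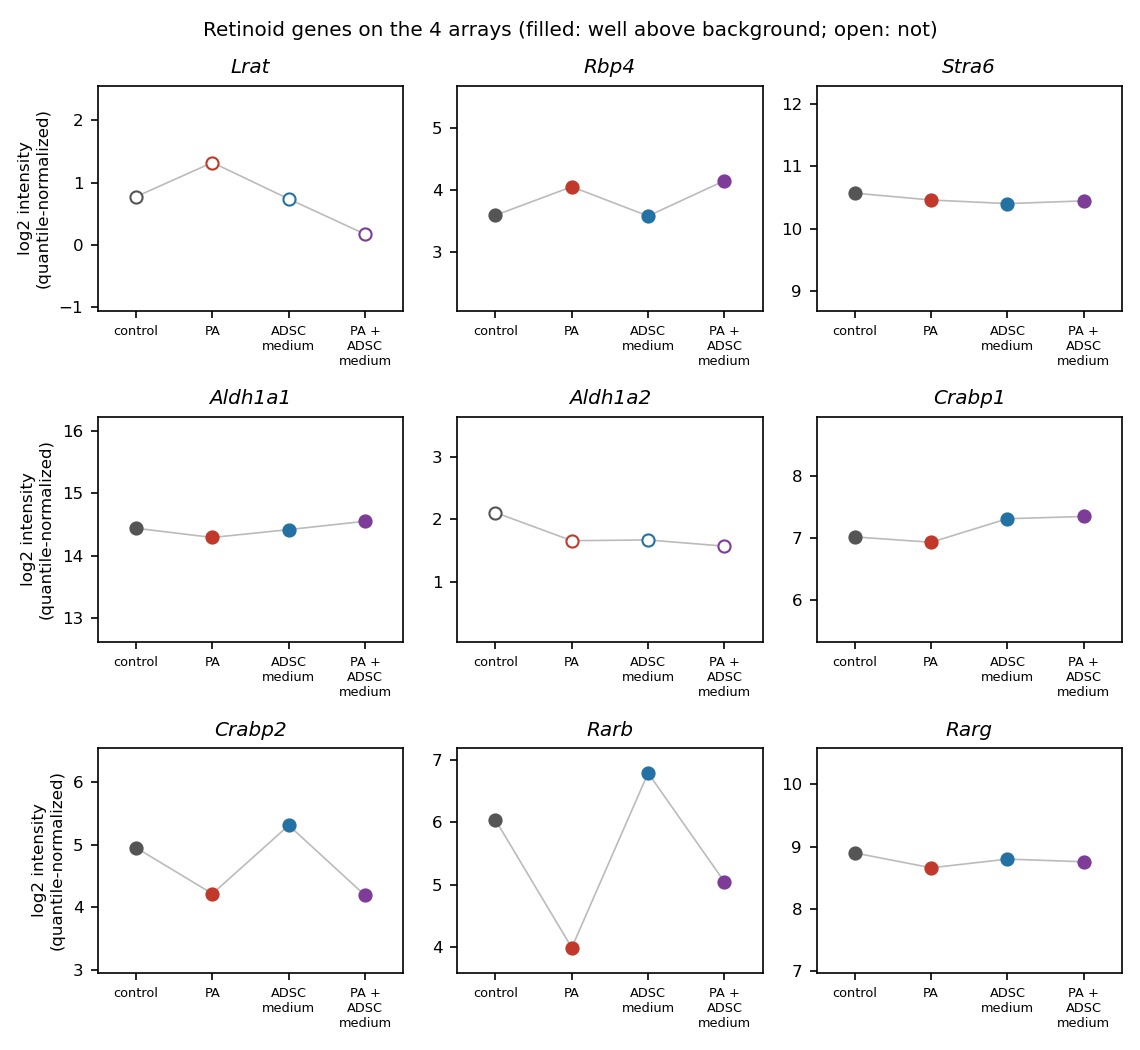
Log2 intensity after quantile normalization (y axis, 1 panel per gene, each spanning the same height) on the 4 arrays (x axis), 1 array per condition and no error bar. Filled points are well above background and open points are not; Rarb runs from 3.99 with PA to 6.79 with ADSC medium, while Stra6 stays between 10.40 and 10.57.

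Storage and transport come first. Lrat, the enzyme that makes retinyl esters and a defining gene of quiescent stellate cells, was not well above background on any array by either of its 2 probes (mm9, chr3:82696805-82696864 and chr3:82699609-82699668). The brighter Lrat probe read 0.77 in control, 1.32 with PA, 0.74 with ADSC medium and 0.17 with both, with a scanner error of 0.59 to 1.44 on the log2 scale. No difference is given for Lrat, since all 4 readings are background. Of 12 markers of quiescent stellate cells, 7 were well above background on all arrays: Ngfr, Lhx2, Vipr1, Ecm1, Colec11, Pparg and Nes. Lrat, Gfap, Reln, Hand2 and Hgf were on none.

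Rbp4, the retinol carrier, was dim but above background (chr19:38191129-38191188). Its level was 3.60 in control, 4.05 with PA, 3.58 with ADSC medium and 4.15 with both. In processed intensity, before normalization between arrays, both PA arrays read 18.4 and both arrays without PA read 11.2. Rbp4 was 1.37-fold higher with PA than in control (log2 difference 0.46) and 1.48-fold higher with both than with ADSC medium alone (0.57), both under the 1.5-fold mark. In bulk RNA, for this as for the other genes, fewer cells that express a gene and less RNA per cell cannot be told apart. With another background correction (normexp with an offset of 50, which by construction shrinks differences of dim probes) these were 0.09 and 0.16. ADSC medium went with a difference of -0.01 without PA and 0.10 with PA.

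Stra6, the membrane receptor for Rbp4, was bright (probe across an intron, chr9:58000379-58000990) and nearly level: 10.57 in control, 10.46 with PA, 10.40 with ADSC medium and 10.45 with both. Its whole range was 0.17, less than the median range of 0.305 over the genes well above background on all arrays.

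Of the enzymes among the 9 genes that make retinoic acid, Aldh1a1 was the one well above background (chr19:20717764-20717823). Its intensity was 21236 in control, 22675 with PA, 20454 with ADSC medium and 23918 with both, and no spot was saturated. The normalized level was 14.44, 14.29, 14.42 and 14.55 in the same order, a range of 0.26. Aldh1a2 (chr9:71143931-71143990) was not well above background on any array, with levels of 2.11, 1.66, 1.67 and 1.57, and has no difference. Aldh1a3, the third enzyme of the family, was not well above background on any array by either probe.

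Crabp1 and Crabp2, close relatives, differed in their course. Crabp1 (chr9:54616192-54616251), the carrier linked to breakdown of retinoic acid, read 7.02 in control, 6.93 with PA, 7.31 with ADSC medium and 7.35 with both. Both arrays with ADSC medium lay above both without, by 0.29 without PA and 0.41 with PA, or 1.22-fold and 1.33-fold, under the 1.5-fold mark. How many of all genes split by treatment in this way was not counted, here or for the genes below. PA went with differences of -0.09 and 0.04.

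Crabp2 (chr3:87752682-87752741), which hands retinoic acid to the nuclear receptors, read 4.95 in control, 4.21 with PA, 5.31 with ADSC medium and 4.19 with both. Both PA arrays lay below both arrays without PA. Crabp2 was 1.67-fold lower with PA than in control (log2 difference -0.74, the 301st lowest of 18209 genes) and 2.18-fold lower with both than with ADSC medium (-1.12, the 58th lowest of 18465). These rest on 1 spot per array, with intensities of 29.0, 20.6, 36.9 and 19.0 and a scanner error of 0.15 to 0.17 on the log2 scale. With the normexp correction they were -0.18 and -0.38, under the mark. ADSC medium went with 0.36 without PA and -0.03 with PA, so Crabp2 with both stood at its PA level.

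Rarb, the retinoic acid receptor known as a target of its own ligand, gave the widest differences of the 9 genes. Its probe (chr14:17263511-17263570, 1 of 2 Rarb probes) is printed on 10 spots of each array, and all of them were well above background. Spots not marked as outliers ranged from 54.1 to 65.0 in control (10 spots, median 60.9), from 16.1 to 19.0 with PA (9 spots, median 17.7), from 97.7 to 109 with ADSC medium (8 spots, median 101) and from 31.0 to 37.7 with both (10 spots, median 33.4). The spots of no array overlapped those of another, and the order from dim to bright was PA, both, control, ADSC medium. Spots of 1 array share its RNA and labelling, so they show the precision of the reading and not the spread between cultures.

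**Figure D2:**
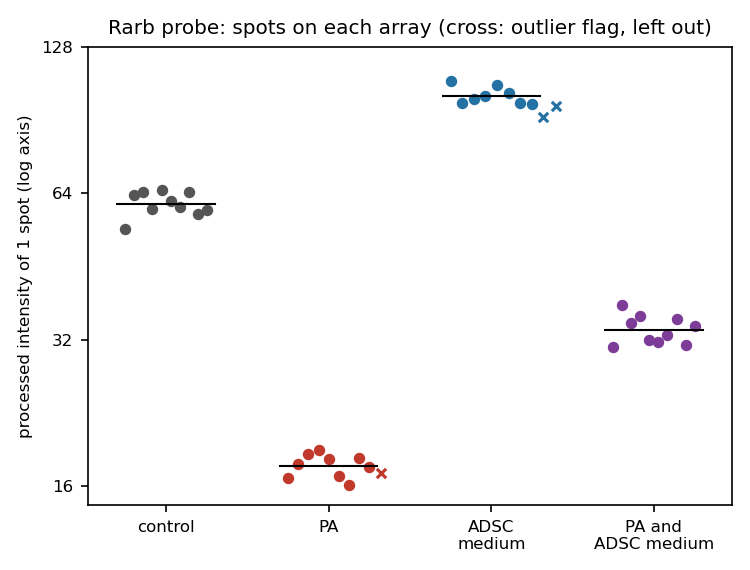
Processed intensity of each Rarb spot (y axis, log scale, before normalization between arrays) on the 4 arrays (x axis). Dots are spots used, crosses are spots with an outlier flag that were left out, and the bar is the mean over the dots on the log scale; the dots fall at 16.1 to 19.0 with PA and at 97.7 to 109 with ADSC medium.

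The normalized Rarb level was 6.04 in control, 3.99 with PA, 6.79 with ADSC medium and 5.04 with both. Rarb was 4.13-fold lower with PA than in control (log2 difference -2.05), the 9th lowest of 18209 genes. On the other two arrays it was 3.35-fold lower with both than with ADSC medium (-1.74), the 10th lowest of 18465. The contrast of ADSC medium ran the other way: 1.68-fold higher than control (0.75, the 211th highest of 18198) and 2.08-fold higher with both than with PA alone (1.05, the 290th highest of 18751). With both, Rarb was still 1.99-fold below control (-0.99, the 79th lowest of 18251). With the normexp correction the differences kept their direction and were -0.75, -0.94, 0.48, 0.29 and -0.45 in this order, the last 3 under the 1.5-fold mark.

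The range of Rarb over the 4 arrays was 2.8, the 32nd widest of 17355 genes, against a 95th percentile of 0.984. Among the 177 probes with 10 spots that were well above background on all arrays, Rarb was the lowest in both PA contrasts and had the 2nd widest range. The other Rarb probe targets a different stretch of the gene and was at background on every array, so it gives no second reading.

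Rarg (chr15:102066309-102066368) read 8.90 in control, 8.66 with PA, 8.80 with ADSC medium and 8.76 with both. The PA array was 0.24 below control, and the other 3 Rarg probes were lower there too, with differences of -0.33, -0.19 and -0.28. With ADSC medium present the PA contrast was -0.04 by the first probe.

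Counts over the 9 genes stand beside the share of all genes past the same mark. The 9 genes were chosen with earlier results of these data known, so this is no test of them as a set. With PA against control 2 of the 7 measured genes were lower (Rarb and Crabp2) and none higher, while of all 18209 genes compared 3.27% were lower and 2.92% higher. With ADSC medium against control 1 was higher (Rarb) and none lower, against 2.31% of all genes higher and 1.29% lower. With both against PA 1 was higher (Rarb) and none lower, against 5.25% higher and 3.72% lower. With both against ADSC medium 2 were lower (Rarb and Crabp2) and none higher, against 3.14% lower and 3.54% higher. With both against control Rarb and Crabp2 were lower and none higher, against 3.67% lower and 4.68% higher. The median of the 7 differences was -0.15, -0.01, 0.10, 0.04 and -0.12 in these comparisons, with medians over all genes between -0.02 and -0.01. The plot of differences places Rarb outside the middle 99% of genes in both PA contrasts and in the comparison of both with control, and inside it in both contrasts of ADSC medium.

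**Figure D3:**
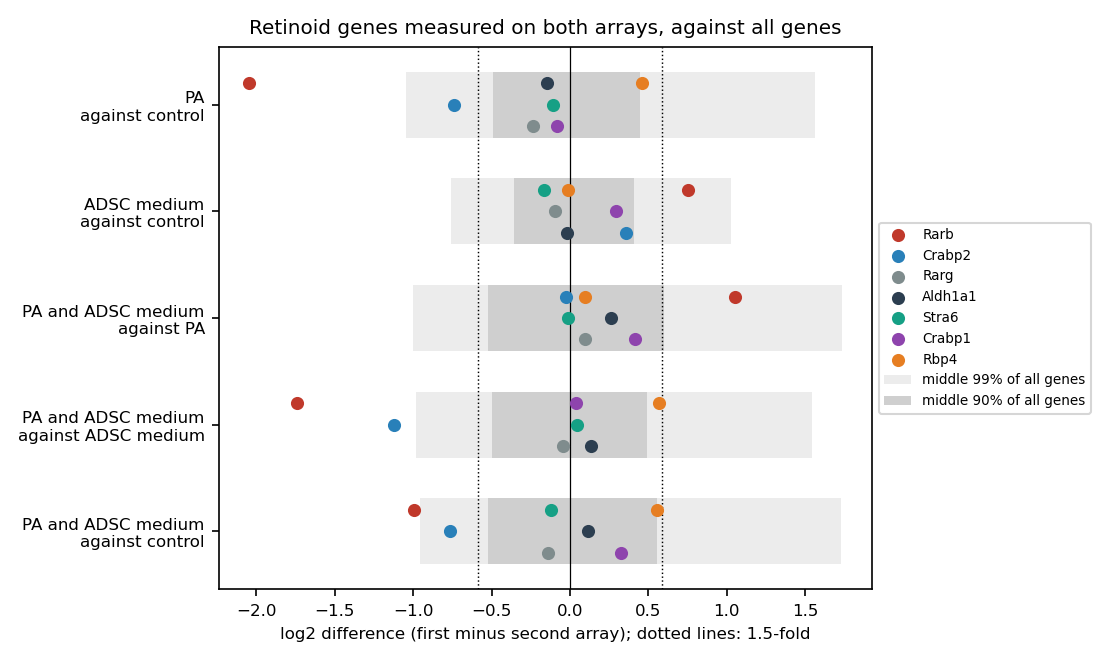
Log2 difference between 2 arrays (x axis) for the 7 retinoid genes well above background, in 5 comparisons (y axis, 1 point per gene, spread vertically for legibility). Grey bands hold the middle 90% and 99% of all genes and dotted lines mark 1.5-fold; Rarb is at -2.05 and -1.74 in the PA contrasts, with Crabp2 at -0.74 and -1.12.

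Set against each other, the PA contrasts without and with ADSC medium differed for Rarb by 0.30, and 23.8% of genes differed by as much or more. For Crabp2 this was -0.39 (16.3% of genes). For the other 5 it lay between 0.11 and 0.28, and the median size over all genes was 0.152. With 1 array per condition, this difference is the only residual an additive description leaves, and it was not tested. Genes at least 1.5-fold lower in both PA contrasts numbered 174 of 17971 (0.968%), among them Rarb, Crabp2 and Dhrs3. Those at least 1.5-fold higher in both numbered 265 (1.47%), among them Cyp26a1.

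**Figure D4:**
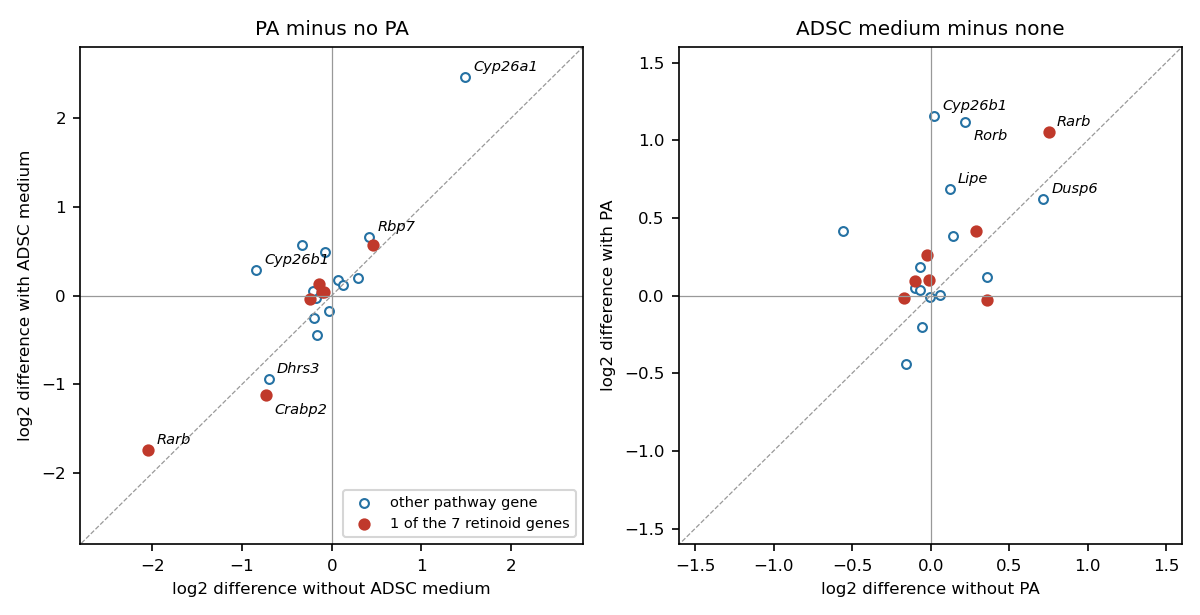
Left, log2 difference of PA against no PA with ADSC medium (y axis) and without it (x axis); right, log2 difference of ADSC medium against none with PA (y axis) and without it (x axis). Each point is 1 gene, red for the retinoid genes and open for other pathway genes, and the dashed line marks equal differences; Rarb, Crabp2 and Dhrs3 lie low in both PA contrasts and Cyp26a1 high, at 1.49 and 2.46.

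The wider pathway was read from a list of 78 further genes of retinoid storage, conversion, breakdown, reception and response, of which 75 are on the array and 59 had a value in most comparisons. With PA against control 1 of 59 was higher and 3 were lower, against 2.92% and 3.27% of all genes. With ADSC medium against control 1 was higher and none lower (2.31% and 1.29% of all genes). With both against PA 4 were higher and none lower (5.25% and 3.72%). With both against ADSC medium 2 of 58 were higher and 1 lower (3.54% and 3.14%). With both against control 5 were higher and 2 lower (4.68% and 3.67%). The list's medians lay between -0.01 and 0.02, and most pathway genes were under the mark.

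Dhrs3, a retinal reductase, was low on both PA arrays, as Rarb and Crabp2 were. It read 8.78 in control, 8.08 with PA, 9.15 with ADSC medium and 8.20 with both, and both PA arrays were below both others. The PA contrasts were -0.70 without and -0.94 with ADSC medium, and its second probe gave -0.73 and -0.94. ADSC medium went with 0.36 without PA and 0.12 with PA. With the normexp correction they were -0.55, under the mark, and -0.88.

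Cyp26a1, the retinoic acid hydroxylase, was opposite to Rarb in both PA contrasts. Its intensity was 10.6 in control, 35.8 with PA, 7.36 with ADSC medium and 44.1 with both, each from 1 spot (chr19:37775566-37775625). Levels were 3.52, 5.0, 2.96 and 5.42, so both PA arrays lay above both others. The PA contrasts were 1.49 and 2.46, the latter the 17th highest of 18465 genes, and 0.43 and 0.61 with the normexp correction. ADSC medium went with -0.56 without PA and 0.42 with PA. The PA contrasts differed by 0.98, and 1.31% of genes differed by as much or more.

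Cyp26b1, the other hydroxylase measured (chr6:84521952-84522011), had neither course. It read 8.10 in control, 7.26 with PA, 8.13 with ADSC medium and 8.42 with both, so the PA array alone was low. The PA contrast was -0.84 without ADSC medium and 0.29 with it. ADSC medium went with 0.02 without PA and 1.15 with PA, and 0.703% of genes differed as much between the contrasts.

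**Figure D5:**
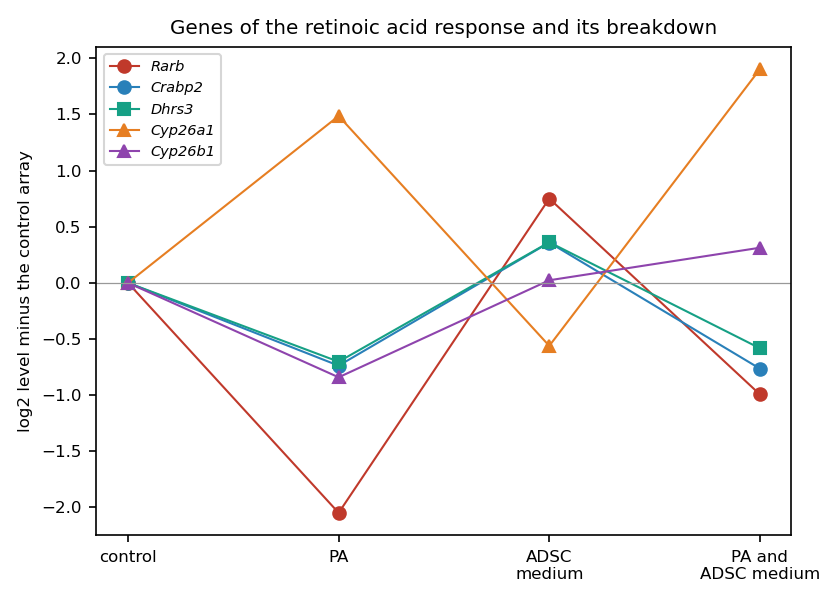
Log2 level minus the control array (y axis) for 5 genes on the 4 arrays (x axis), 1 array per condition, so there is no error bar; lines only join the points of a gene. Rarb, Crabp2 and Dhrs3 lie below control on both PA arrays and above it with ADSC medium alone, Cyp26a1 is at 1.49 and 1.90 on the PA arrays, and Cyp26b1 is at -0.84 with PA alone.

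Among genes of storage and conversion outside the 9, Rbp7, an intracellular retinol carrier, was higher in all 5 comparisons by its brighter probe, and past 1.5-fold in 2. It was 0.65 higher with both than with ADSC medium and 0.80 higher than control, and 0.31 and 0.39 with the normexp correction. Averaged over its probes, Rbp7 was 0.99 higher with PA than in control against 0.41 by the brighter probe alone, since the dimmer probe was at background in control. Lipe, a lipase with retinyl ester hydrolase activity, was 0.69 higher with both than with PA and 0.61 higher than control. Its second measured probe gave 0.39 and 0.17, and the normexp correction 0.30 and 0.21. Rdh10, the main retinol dehydrogenase of retinoic acid synthesis, stayed within 0.17 of control.

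Among the other receptors Rara read 4.13, 4.20, 4.06 and 4.24 in control, PA, ADSC medium and both. Rxra was 0.20 lower with both than with PA, and its second probe 0.37 lower; against control these differences were -0.23 and -0.59, the latter past the mark. Rxrb stayed within 0.13 of control. Rorb, an orphan receptor of the retinoid-related family, was 1.12 higher with both than with PA and 0.79 higher than control by its brightest probe. Its levels were 3.26 to 4.38, and the differences 0.23 and 0.21 with the normexp correction. A second Rorb probe, not well above background with PA, gave 0.86 and 0.29, the latter under the mark. Another Rorb probe was not well above background on any array. Fabp5, which carries retinoic acid to PPARs, stayed within 0.20 of control.

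Of 25 genes known to respond to retinoic acid that are outside the 9, 20 had a value. With PA against control 7 of these lay above and 13 below 0, with a median of -0.09 (-0.01 over all genes). With both against ADSC medium 5 lay above and 15 below, with a median of -0.17 (-0.02 over all genes). How many of all genes lay below 0 was not counted, so these counts have no share to stand beside. Only Cyp26a1, higher, and Dhrs3, lower, were past 1.5-fold in these comparisons. Of all genes 6.19% and 6.67% were past it. Tgm2, the transglutaminase, was 0.60 lower with both than in control, and its other 2 probes gave -0.57 and -0.62. Dusp6, a phosphatase of the ERK pathway, was 0.71 higher with ADSC medium than control and 0.62 higher with both than with PA, and its PA contrasts were 0.29 and 0.20, under the mark.

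Patterns most like that of Rarb were ranked over 17354 genes by the Euclidean distance between levels centred on each gene's mean over the 4 arrays. Among the nearest 5 were Defb1, a beta-defensin (distance 0.36), Cfhr2 (0.38), and the kallikreins Klk1b24 (0.43) and Klk1b21 (0.58). Defb1 read 4.53, 2.64, 5.40 and 4.02 in control, PA, ADSC medium and both. The kallikreins are close relatives whose probes may read each other's RNA, which was not tested. Among the retinoid genes, Crabp2 was nearest to Rarb at 1.26, with 0.496% of genes as near, and the other 5 lay at 1.95 to 2.56.

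The array holds 41174 probes, of which 14 read the 9 genes. In the authors' deposited table of 1580 probes higher with PA than in control, 1 of these 14 was found, that of Rbp4. Of the wider pathway it holds Cyp26a1, Rarres1 and Rbp7. In the authors' deposited table of 920 probes higher with PA than with both, none of the 14 was found, and of the wider pathway Adh4 and Rxrg. With so few probes these counts say little, and they were not tested against the share of all probes listed. Here Adh4 was not well above background on any array, and Rxrg was so on the PA array alone, at a level of 2.18. Both tables hold only probes high with PA, so neither could hold Rarb, and the thresholds behind them are not stated.

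The arrays were alike in the share of spots with signal. Each had 45018 spots, none saturated, with 67.9% to 70.3% of non-control spots well above background. Before normalization the PA array was the brightest, with a 75th percentile of intensity of 622. It was 495 in control, 497 with ADSC medium and 542 with both. Markers of stellate cells and myofibroblasts were well above background on all arrays for 11 of 12, Lum being the exception. Of markers for other cells, 2 of 8 for hepatocytes, 5 of 8 for macrophages, 4 of 7 for endothelial cells, 4 of 6 for biliary cells and 4 of 9 for adipose cells were well above background on all arrays. From these lists Alb, Adgre1, Ptprc, Pecam1, Epcam and Adipoq were not well above background on any array. Tat, Cd14, Lyz2, Kdr, Vwf, Krt7, Sox9, Spp1 and Fabp4 were on all. The mean level of the stellate and myofibroblast list was 10.85, 10.70, 10.80 and 10.78 in control, PA, ADSC medium and both. That mean averages members that differed in both directions, counted here over 11 with a value. With PA against control 1 was higher and 2 were lower, against 2.92% and 3.27% of all genes. With ADSC medium against control 2 were higher and 2 lower (2.31% and 1.29%). With both against PA 4 were higher and 3 lower (5.25% and 3.72%). With both against ADSC medium 1 was higher and none lower (3.54% and 3.14%). With both against control none was higher and 1 lower (4.68% and 3.67%). With ADSC medium against control Acta2, the smooth muscle actin of myofibroblasts, was at -1.43 and Tagln at -1.10, while Dcn was at 0.76 and Pdgfra at 0.59. With PA against control Pdgfrb, a PDGF receptor, was at -0.93 and Col3a1 at -0.84, while Des was at 0.88. Pdgfrb was at 1.33 with both against PA. The mean level of a list, from array to array, ran from 7.64 to 7.86 for portal fibroblast and mesothelial markers (8 of 11 well above background on all arrays), 1.66 to 1.97 for hepatocyte, 4.05 to 4.25 for macrophage, 3.90 to 4.30 for endothelial, 5.90 to 6.30 for biliary and 4.86 to 5.20 for adipose markers. The part of these in the retinoid differences was not tested.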

How the data were processed

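Total RNA of 4 IMS/N cultures was amplified, labelled with Cy3 and hybridized to 1 one-colour Agilent array each, per the labels' protocols. The deposited values are processed spot intensities, background-subtracted within each array by the authors' scanner software, per the file headers. Quantile normalization followed, per the series' design text, and the submitters' processing notes name R 3.5.1. The authors also deposited lists of selected probe names, whose thresholds are not stated.

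Here control spots and spots with an outlier flag (82 to 104 per array) were left out, spots of a probe were averaged as log2, and the 4 arrays were quantile-normalized with limma 3.58.1 in R 4.3.3. A value on every array was obtained for 41146 of 41174 probes. Symbols came from RefSeq accessions for 28680 probes and from the array for 12466. Probe positions are on mm9, as in the files, and promoters on GRCm38.p6. A probe was well above background where over 50% of its spots carried that scanner flag, and a gene took its brightest probe. Genes were compared when well above background on at least 1 of 2 arrays, with a dim value raised to that array's lowest level well above background (2.07 to 2.43). With 1 array per group there is no test between conditions. Other steps used Python 3.11.15, numpy 2.4.6, pandas 2.3.3 and matplotlib 3.10.9, and scripts were tested on simulated data.

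The 9 genes, the pathway and marker lists and the alternatives were chosen with earlier results of these data known. All 9 genes are named; pathway genes are named when past 1.5-fold in at least 1 comparison on arrays where both readings were well above background, together with fixed names (Rara, Rxra, Rxrb, Rdh10, Dhrs3, Aldh1a3, Cyp26a1, Cyp26b1, Fabp5 and Tgm2), and the 5 genes most like the widest-ranging one; some of these genes are not reported here. Alternatives were 75th percentile scaling, normexp background correction with an offset of 50, no filter on dim probes, the mean of a gene's measured probes, a 2-fold mark, and outlier spots kept.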

Additional observations from a re-analysis of the deposited data

Results flagged for a closer look

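For some of the 7 measured genes, listed here by treatment, a contrast had one sign without the other treatment and the opposite sign with it. The difference was not tested, since each sign comes from 2 arrays. Of all genes well above background on all arrays, 36.2% had opposite signs in the 2 PA contrasts. In the 2 contrasts of ADSC medium 36.9% did. For ADSC medium without and with PA, Crabp2 went from 0.36 to -0.03 (difference -0.386), Rbp4 from -0.01 to 0.10 (0.109), Rarg from -0.10 to 0.10 (0.195) and Aldh1a1 from -0.02 to 0.26 (0.281). For PA without and with ADSC medium, Stra6 went from -0.11 to 0.04 (0.154), Crabp1 from -0.09 to 0.04 (0.122) and Aldh1a1 from -0.15 to 0.13 (0.281). None of these contrasts reached 1.5-fold.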

How the results depend on the processing

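Of 35 differences of the 7 measured genes, 8 were past 1.5-fold, none of these turned sign under the alternatives run, and 2, Rarb in both PA contrasts, were past 1.5-fold under all of them. Of the 27 under 1.5-fold, 2 turned sign: Rbp4 for ADSC medium against control (0.01 with normexp) and Crabp2 for both against PA (0.08 with 75th percentile scaling). The counts of the 9 genes past the mark were 2, 1, 1, 2 and 2 for PA, ADSC medium against control, both against PA, both against ADSC medium and both against control. With normexp they were 1, 0, 0, 1 and 0, and the shares of all genes past the mark were 2.10%, 0.707%, 2.39%, 2.12% and 2.88%; its offset adds 50 to every intensity, which shrinks differences of dim probes by construction. With a 2-fold mark they were 1 for PA and 0 for ADSC medium against control and for both against control, while both against PA and both against ADSC medium kept counts of 1 and 2; of all genes 1.69%, 0.654%, 2.26%, 1.74% and 2.23% were past it, in the order above. Without the filter on dim probes the count for both against PA was 2, through Lrat at -1.15. Lrat was then also past the mark for both against control, at -0.60. The readings of Lrat are background. No alternative moved the median over all genes by more than 0.1. With 1 array per condition no array could be left out. No paired analysis was possible because each condition has 1 array.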

Other observations

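Genes with a spacing-5 repeat in the promoter window, Rarb and Cyp26a1 among them, are given as values. The table names 31 such genes, of which 10 are on the array, counted with Rarb and Cyp26a1. In the PA contrast without ADSC medium 6 had a value, and only Cyp26a1 (1.49) and Rarb (-2.05) were past 1.5-fold, in opposite directions. In the PA contrast with ADSC medium 8 had a value, and again only Cyp26a1 (2.46) and Rarb (-1.74) were past it. Of all genes 6.19% and 6.67% were past it in these contrasts. Ppbp, a platelet chemokine, was well above background on the 2 arrays with ADSC medium, at 3.5 without PA and 3.06 with PA, and was at least 1.07 higher on the log2 scale with ADSC medium than in control. Prss27 was 0.79 lower with both than with PA. Blvrb, Hbb-y and Tnfsf13b were under 1.5-fold in all 5 comparisons.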
